A study of Mus musculus with 9 samples.

Results

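PINCH2 mutant sciatic nerve was compared with control nerve entry by entry, and each entry of the count table was read together with any entry that overlaps it on the opposite strand. An entry is 1 row of the table, with a gene symbol, a chromosome, a span and a strand. Entries with at least 10 counts in at least 3 of the 6 libraries were kept, which left 4423 of 25965 (17%). A partner is an entry on the same chromosome and the opposite strand whose span overlaps that of the entry, and the entry is then said to lie over its partner. Of the 4423 entries kept, 2459 (55.6%) had a partner and 1964 had none, while 24.8% of the whole table (6444 entries) had one.

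The mice had a C57BL/6 background, and the sciatic nerve was stripped of its outer sheath, the epineurium, before total RNA was prepared. Controls were littermates, and all 6 libraries (3 per genotype) were made from 4 pooled nerves each, taken from 1 male and 1 female mouse, so p-values measure the spread between pools. The protocol puts the mice at postnatal day 14 and the sample characteristics at postnatal day 15. The sources used here do not give how the PINCH2 mutants were made, in which cells the gene was lost or whether the controls carried any of the same alleles.

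PINCH2, encoded by Lims2, is an adaptor built of LIM domains. It binds integrin-linked kinase (Ilk) and the parvins, and this complex connects integrins, the receptors for the basal lamina, with the actin cytoskeleton. In the sciatic nerve the main integrin-bearing glia are Schwann cells, which sort axons and wrap the large ones in myelin around the age sampled here. Overlapping genes on opposite strands meet in 3 ways: tail to tail at their 3′ ends, head to head at their 5′ ends, or with 1 span inside the other.

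The shortest overlap among the abundant entries lay on the mitochondrial genome, where mt-Nd5 and mt-Nd6 meet tail to tail and share 14 bases (MT 13552 to 13565, GRCm38). The last 50 bases of each gene, from the GENCODE M21 transcripts, are shown because they are the only place where the most counted entry of the table overlaps another. They are written 5′ to 3′ on each gene's own strand, with the shared bases in capitals (mt-Nd5, plus strand, MT 13516 to 13565, and mt-Nd6, minus strand, MT 13552 to 13601).
mt-Nd5: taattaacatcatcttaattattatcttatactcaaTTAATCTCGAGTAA
mt-Nd6: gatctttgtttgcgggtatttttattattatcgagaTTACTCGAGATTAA
Both genes encode subunits of respiratory complex I. The mt-Nd6 entry had 109016, 94108 and 102738 counts in controls and 80010, 122831 and 107413 in PINCH2 mutants. The mt-Nd5 entry had 3317, 1951 and 2849 counts in controls and 2256, 2780 and 3602 in mutants. The groups overlapped for both. Mt-Nd6 is the 1 protein-coding gene on its strand of this genome, and its entry took 80.9% to 89.8% of the mitochondrial counts in controls and 83.8% to 90.8% in mutants.

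Of the 12 most counted entries, which together held 27.9% of all counts on the entries kept, 11 had a partner. In each of those 11 pairs the partner had fewer counts. Gm20721 lies within the span of Gnas, the gene for a stimulatory G protein subunit, and had 44897, 52552 and 44402 counts in controls and 42327, 58722 and 44174 in mutants. Gnas itself had 66, 107 and 64, and 50, 81 and 74. Syn3, a synapsin gene, spans Timp3, which encodes a metalloproteinase inhibitor; Syn3 had 33823, 33916 and 34533 counts in mutants against 80, 112 and 91 for Timp3. Gm17035 lies within Ndrg1, a gene that myelinating Schwann cells need, with 32022, 31634 and 29211 counts in mutants against 254, 296 and 285 for Ndrg1. Taf10, a gene for a basal transcription factor subunit, shares 3533 bases of its span with Ilk and had 10191, 11717 and 9703 counts in mutants, against 189, 236 and 176 for Ilk. Entries with a partner held 89.2% of the counts on entries kept, of which tail-to-tail pairs had 56.3%, nested spans 27.0% and head-to-head pairs 5.89%. Entries without a partner held the other 10.8%. The sources used here do not give the strand setting of the authors' counting, so a count under one name could not be told from transcription of the partner. No partner also means no partner among the table's entries: 508 of the 1964 entries without one (25.9%) lie across an annotated gene on the other strand for which the table has no entry.

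The most abundant of these pairs differed little between the groups. Among the 11 entries with a partner, log2 fold changes (PINCH2 mutant minus control) ran from -0.07 to 0.56, and none passed with edgeR. Gm15541, at 0.56 (SE 0.59), lies within Prx and had 5821, 4819 and 11426 counts in controls and 13734, 11533 and 6175 in mutants. Its groups overlapped, because mutant replicate 3 lay among the controls in counts, and both mutant replicates 2 and 3 did in CPM.

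The 6 libraries held 973578 to 1204964 counts, of which 97.16% to 98.03% fell on the entries kept, and a count of 0 allows up to 3 counts, or 2.49 to 3.08 CPM (counts scaled to the total of a library). Such limits cover counting error only. Control replicate 2 and PINCH2 mutant replicate 2 stood apart in a group of mitochondrial entries: mt-Co3, a cytochrome oxidase subunit gene, had 613, 23 and 2344 counts in controls and 1374, 7 and 1573 in mutants, and mt-Atp6, an ATP synthase subunit gene, had 577, 7 and 2304, and 1434, 3 and 1454. Each control and mutant library was therefore left out in turn.

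The targeted gene came first. Lims2 (chromosome 18, 31931507 to 31958619, plus strand, GRCm38) had 9, 1 and 5 counts in controls and 5, 1 and 1 in PINCH2 mutants, which overlapped, and it was not among the entries kept. At this depth a loss of Lims2 counts was not detectable. Lims1 (chromosome 10, 58323466 to 58424691, plus strand), the gene for the related adaptor PINCH1, has no partner and was also not kept, with 3, 7 and 7 counts in controls and 0, 1 and 9 in mutants.

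The entry that differed was the partner of Lims2. Gpr17 (chromosome 18, 31942997 to 31949636, minus strand) lies entirely within the Lims2 span, so that 6640 bases of the spans overlap, 188 of them in exons of both genes. It encodes a G protein-coupled receptor related to the P2Y and cysteinyl leukotriene receptors and is known from the oligodendrocyte lineage of the brain. Gpr17 had 321, 211 and 380 counts in controls and 113, 151 and 67 in PINCH2 mutants, so that each mutant library was lower than each control library. In scaled CPM this was 289.5 ± 78.0 (SD, n = 3) in controls and 104.8 ± 32.7 (SD, n = 3) in mutants, or 0.362 of the control level.

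**Figure D1:**
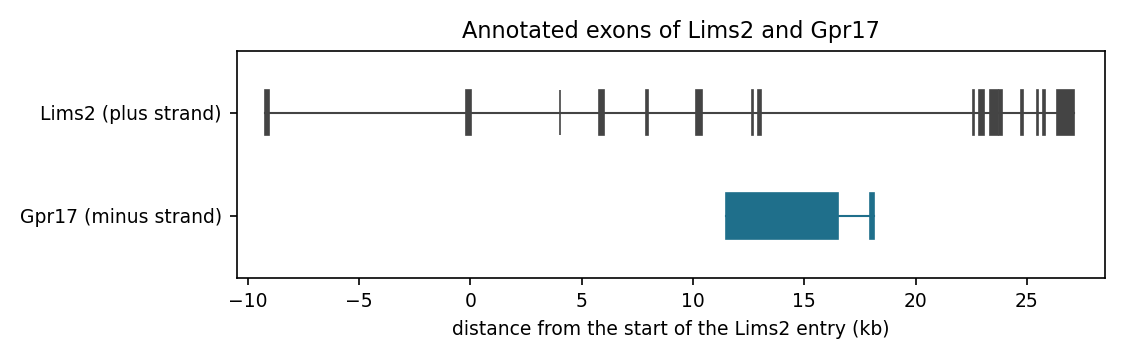
Annotated exons (GENCODE M21) of Lims2 on the plus strand and Gpr17 on the minus strand, drawn to scale as boxes along the distance in kb from the start of the Lims2 entry. The long exon of Gpr17 runs from 11.49 to 16.508 kb and covers 2 of the drawn Lims2 exons, at 12.632 to 12.698 and 12.929 to 13.049 kb.

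Gpr17 fell by 1.46 on the log2 scale (SE 0.24, edgeR adjusted p = 0.0323). It was the only entry of 4423 that passed in the lower direction (0.0226%), and 0 entries (0.0%) passed in the higher direction with edgeR, where 73 higher (1.65%) and 100 lower (2.26%) had an unadjusted p under 0.05. DESeq2 and limma-voom also called Gpr17 alone, with adjusted p of 8.94e-05 and 0.0487. The call was lost with only the 6 libraries in the model (edgeR adjusted p = 0.117) and with the replicate number added as a term (0.115). With 1 library left out it was also lost for control replicate 1 (edgeR adjusted p = 0.346) and control replicate 3 (0.335), and for mutant replicates 1 (0.0901), 2 (0.0511) and 3 (0.299), while the log2 fold change stayed between -1.23 and -1.68 over these and all other settings.

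Because the Gpr17 span lies within that of Lims2 and the strand setting of the counting is not given, the lower count could not be assigned to either strand. Of the 11 receptors of the P2Y, cysteinyl leukotriene and Gpr17-related list, P2ry6 was the 1 other entry kept, with 18, 23 and 8 counts in controls and 10, 26 and 5 in mutants, groups that overlapped (-0.31, SE 0.55). P2ry13, Cysltr1, Cysltr2 and Gpr34 had 0 counts in all 6 libraries. Med12l, a Mediator kinase module gene that lies over P2ry12, P2ry13 and P2ry14, had 60, 174 and 87 counts in controls and 54, 171 and 96 in mutants, also overlapping (-0.03, SE 0.38). Of the 10 markers of the oligodendrocyte lineage, 5 were at 0 (Neu4, Enpp6, Olig1, Olig2 and Opalin) and only Bcas1, over 1700040N02Rik and Gm14259, was kept (-0.20, SE 0.18). The summed level of these markers was 197 to 241 CPM in controls and 173 to 203 CPM in mutants, and its part in the Gpr17 result was not tested. In whole nerve, fewer cells of a type and less RNA per cell cannot be told apart.

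**Figure D2:**
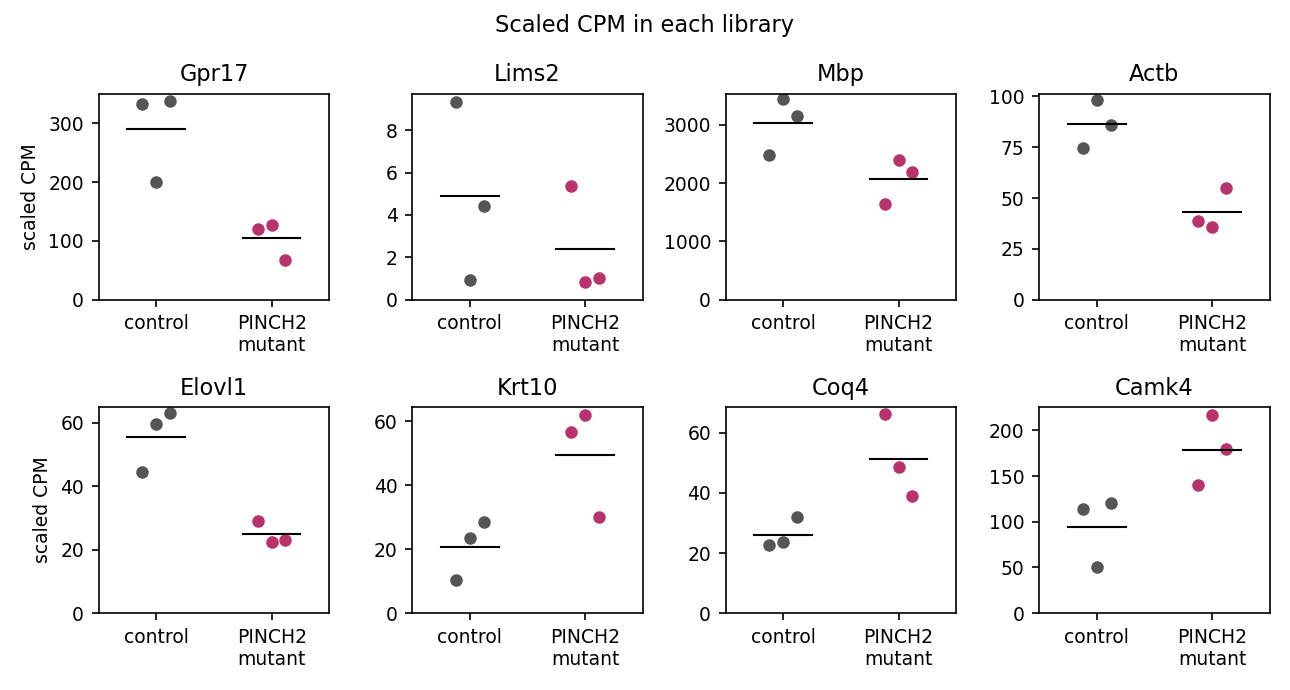
Scaled CPM (vertical axes, each starting at 0) of 8 entries in the 3 control and 3 PINCH2 mutant libraries, with points for libraries and lines for group means. All 3 mutant points of Gpr17 lie below all 3 control points, as they do for Mbp, Actb and Elovl1, while those of Krt10, Coq4 and Camk4 lie above, and Lims2 stays under 10 CPM with overlapping groups.

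Next in order were 12 entries below and 12 above controls, those with the smallest p among entries with a gene-like symbol whose groups did not overlap. None of these 24 passed (edgeR adjusted p = 0.995 for each). Groups without overlap in scaled CPM occurred for 207 entries (4.68%) in the lower and 191 (4.32%) in the higher direction.

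Of the 12 below controls, 11 had no partner. Actb, cytoplasmic beta-actin, had 72, 104 and 97 counts in controls and 36, 43 and 55 in mutants, with the highest mutant library under the lowest control (-0.999, SE 0.26). Arpc2, a subunit of the actin-nucleating Arp2/3 complex, had 13, 28 and 30 against 9, 9 and 9 (-1.35, SE 0.46). The intermediate filament gene Vim had 153, 242 and 249 against 120, 148 and 150 (-0.60, SE 0.20). All 3 entries were separated between the groups. Tuba1a, an alpha-tubulin gene, had 365, 509 and 412 counts in controls and 224, 375 and 307 in mutants (-0.51, SE 0.17). Tubb2a, a beta-tubulin gene that ends 226 bases from Bphl on the other strand, had 14, 18 and 25 against 1, 8 and 7 (-1.81, SE 0.57). Tuba1a counts overlapped before scaling, since mutant replicate 2 had 375 and control replicate 1 had 365, and they separated only in CPM.

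Mbp, the gene for myelin basic protein, had 2393, 3645 and 3548 counts in controls and 1535, 2863 and 2182 in mutants (-0.54, SE 0.17). Here too mutant replicate 2 lay above control replicate 1 in counts and below it in CPM. Mbp has no partner entry, but the processed pseudogene Rpl21-ps8 is annotated on the other strand within its span. Hspa8, which encodes the constitutive heat shock cognate protein, had 57, 83 and 118 counts in controls and 36, 42 and 51 in mutants (-0.96, SE 0.30). Rps4x, a ribosomal protein gene of the X chromosome, had 40, 63 and 61 against 24, 36 and 22 (-0.99, SE 0.32). Both kept each mutant library under each control. Sat1, whose product acetylates the polyamines spermidine and spermine, had 22, 34 and 41 counts in controls and 2, 9 and 11 in mutants (-2.11, SE 0.51). Rap2a, a small GTPase gene, had 14, 26 and 24 against 3, 9 and 5 (-1.89, SE 0.55). These 2 had the largest log2 fold changes of the 12 and rested on few counts in the mutants. Spag9, a scaffold gene of JNK signalling across which the pseudogene Gm11518 is annotated on the other strand, had 72, 76 and 99 against 36, 43 and 53 (-0.88, SE 0.26).

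The 1 entry of these 12 with a partner was Elovl1, which encodes a very long chain fatty acid elongase and overlaps the 3′ end of Cdc20, a mitotic activator gene, by 53 bases. Elovl1 had 43, 63 and 71 counts in controls and 27, 27 and 23 in mutants, a clear gap between the groups (-1.17, SE 0.30). Cdc20 had 4, 0 and 0 counts in controls and 2, 2 and 5 in mutants, too few to be kept.

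Among the 12 above controls, 10 had a partner, and the partner was often a near-empty entry. Krt10, a keratin gene of the epidermis, spans Gm11940, which was at 0 in all 6 libraries. It had 10, 25 and 32 counts in controls and 53, 74 and 30 in mutants (1.24, SE 0.36), with mutant replicate 3 below the highest control in counts and above it in CPM. The other keratinocyte markers Krt1, Krt5, Krt14 and Ivl were at 0 in all 6 libraries. Cntnap1, the gene for Caspr, an axonal protein of the paranodes beside each node of Ranvier, had 37, 34 and 42 counts in controls and 64, 80 and 77 in mutants (0.98, SE 0.32). It overlaps Plekhh3, with 4, 0 and 1 against 5, 3 and 1 counts, and Ccr10. Epb4.1, a membrane skeleton gene, had 126, 138 and 111 against 201, 204 and 178 (0.65, SE 0.19) and overlaps Gm13063 and Gm10300, which held 5 and 2 counts over all 6 libraries. In both genes all mutant libraries were well above all controls.

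Tail-to-tail partners with more counts than the entry itself belonged to Zfp652, Ccdc86 and Med13. Zfp652, a zinc finger gene, had 65, 68 and 65 counts in controls and 134, 112 and 100 in mutants (0.83, SE 0.24). Abi3, an adaptor gene of the actin machinery with which it shares 5042 bases, had 2229, 1776 and 2025 against 2243, 2150 and 1956, groups that overlapped. Its other partner, 1110035M17Rik, was at 0. Ccdc86, a gene for a nucleolar protein, had 18, 10 and 16 counts in controls and 33, 30 and 39 in mutants (1.23, SE 0.39), and its partner Gpr44, a prostaglandin D2 receptor gene, had 41, 30 and 41 against 30, 59 and 61. Med13, a Mediator subunit gene, had 10, 18 and 13 against 23, 42 and 27 (1.16, SE 0.38), and its partner 4632419I22Rik had 208, 198 and 271 against 370, 267 and 136. For each of these 3 the larger partner overlapped between the groups. The entries were chosen for their separation and the partners were not, so this contrast follows from the choice.

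Coq4, a gene of coenzyme Q synthesis, meets the pseudouridine synthase gene Trub2 head to head, with 1010 bases shared. Coq4 had 22, 25 and 36 counts in controls and 62, 58 and 39 in mutants (0.97, SE 0.32). Trub2 had 28, 26 and 25 against 28, 16 and 20, groups that overlapped (-0.27, SE 0.38). Acin1, a gene for a nuclear protein of the splicing machinery, had 117, 99 and 101 against 145, 153 and 169 (0.57, SE 0.20). It spans 4930579G18Rik, which had 74, 81 and 104 counts in controls and 125, 113 and 112 in mutants and was separated as well. Its other partners, Gm17606 with 96, 116 and 104 counts against 100, 122 and 125 and 1700123O20Rik with 26, 14 and 32 against 48, 49 and 27, overlapped between the groups. The other 2 with a partner were Gpr182, an atypical chemokine receptor gene (16, 30 and 22 counts against 48, 60 and 37; 1.10, SE 0.34), over Zbtb39 with 1, 1 and 3 counts against 0, 0 and 0, and Map4k2, a kinase gene (9, 22 and 17 against 30, 39 and 35; 1.13, SE 0.37), over Gm14966.

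Srrt and Camk4 had no partner entry. Srrt, a gene of RNA processing, ends 39 bases from Ufsp1 on the other strand and had 5, 7 and 13 counts in controls and 17, 29 and 32 in mutants (1.65, SE 0.46). Camk4, a calcium/calmodulin-dependent kinase gene, had 110, 53 and 136 counts in controls and 131, 260 and 179 in mutants (0.92, SE 0.28), and 2310026I22Rik is annotated as an antisense gene across it with no entry of its own. Camk4 counts overlapped before scaling, with mutant replicate 1 below control replicate 3, and did not overlap in CPM.

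**Figure D3:**
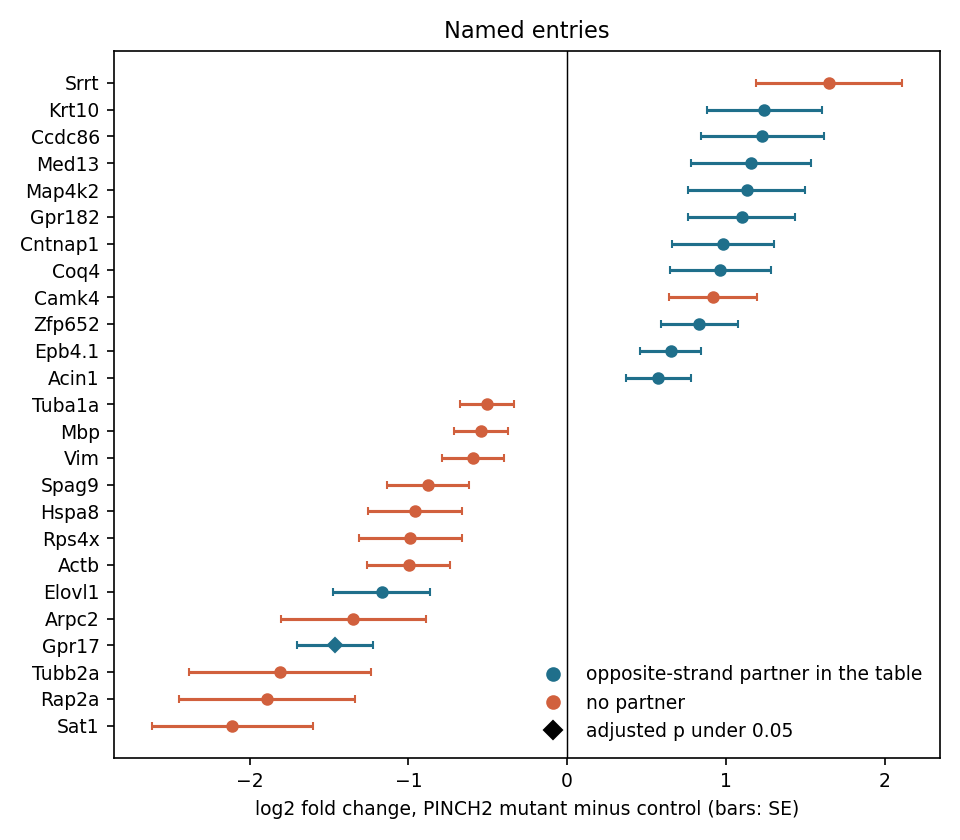
Log2 fold change (PINCH2 mutant minus control, horizontal axis, bars showing the SE) of Gpr17 and the 24 entries next in order, coloured by whether an opposite-strand partner is in the table. Gpr17, the diamond at -1.46, is the 1 entry with an adjusted p under 0.05, and 11 of the 12 others below 0 have no partner while 10 of the 12 above 0 have one.

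The same split by partner was seen over all entries. Entries with a partner had a median log2 fold change of 0.06, with 39.3% below 0, and entries without one had a median of -0.10, with 59.4% below 0. Over all 4423 entries the median was 0.01 and 48.2% were below 0. The 2 classes also differed in count level, with a median of the mean count of 56.2 with a partner and 18.8 without. Whether count level is related to the split was not tested. At an unadjusted p under 0.05, 54 of the 2459 with a partner were higher (2.2%) and 19 lower (0.773%), while 19 of the 1964 without one were higher (0.967%) and 81 lower (4.12%). Groups did not overlap for 130 higher (5.29%) and 55 lower (2.24%) entries with a partner. Without a partner these were 61 higher (3.11%) and 152 lower (7.74%), against 4.32% higher and 4.68% lower over all entries. Among partner classes the medians were 0.04 for tail-to-tail, 0.09 for head-to-head and 0.07 for nested entries. Counting only partners whose exons overlap those of the entry gave a median of 0.06 for 2157 entries with such a partner and -0.08 for 2266 without.

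The share of a library's counts on entries without a partner was 10.2%, 10.9% and 12.6% in controls and 9.95%, 9.97% and 10.9% in PINCH2 mutants, so control replicate 3 was the highest and the groups overlapped. Whether this share is related to the split was not tested. Scaling the 2 classes separately centres each of them, so their medians then lie near 0 by construction and say nothing of the split. With that scaling, at an unadjusted p under 0.05 there were 37 higher and 32 lower entries with a partner and 49 higher and 56 lower without.

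With upper-quartile scaling the median of entries with a partner was 0.00 and that of entries without one -0.16, and the entries at an unadjusted p under 0.05 were 52 higher and 129 lower, so that 28.7% were higher against 42.2% with the main scaling. Leaving out control replicate 3 gave 92 higher and 52 lower, 63.9% higher, and entries without a partner had 29 higher and 42 lower. Lower entries with a partner numbered 31 without control replicate 1, higher ones with a partner 87 without PINCH2 mutant replicate 3, and lower ones without a partner 51 without PINCH2 mutant replicate 1. Higher entries without a partner numbered 29 without PINCH2 mutant replicate 2.

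**Figure D4:**
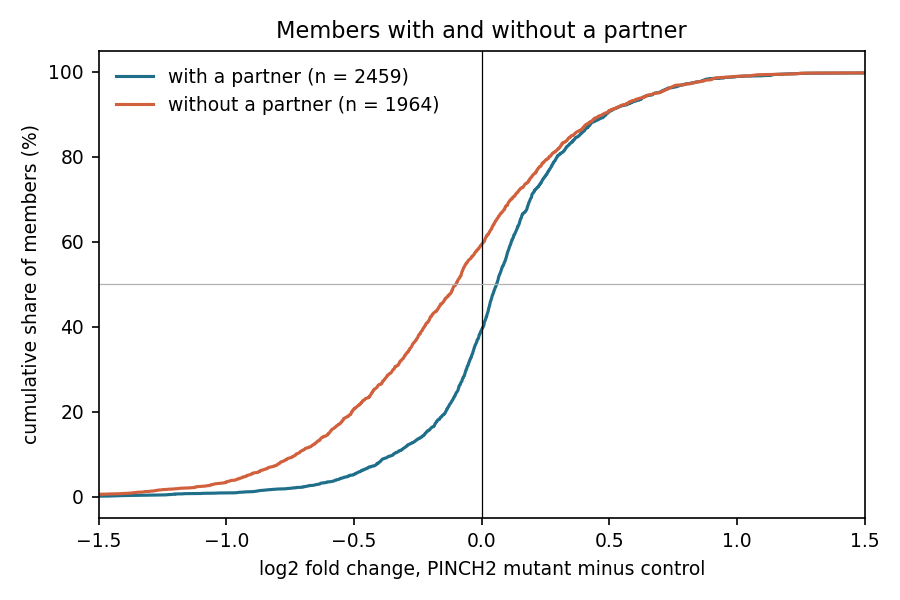
Cumulative share of entries (vertical axis, percent) by log2 fold change (PINCH2 mutant minus control, horizontal axis, drawn from -1.5 to 1.5) for 2459 entries with a partner and 1964 without. At a log2 fold change of 0 the curve without a partner stands at 59.4% and that with a partner at 39.3%.

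Both sides of a pair could be followed in 869 pairs, made up of 1582 entries, where both partners were kept. The remaining 877 entries with a partner lay over entries that were not kept. In the pairs the more counted side had a median of 5.13 times the counts of the other, and 438 pairs differed more than 5-fold. The log2 fold changes of the 2 sides had the same sign in 473 pairs (54.4%), and across pairs Pearson's r was 0.035, given as a description since both sides come from the same libraries. By class, the same sign was found in 56.5% of 503 tail-to-tail, 53.7% of 188 head-to-head and 49.4% of 178 nested pairs. The more counted sides had a median log2 fold change of 0.07 and the less counted sides one of 0.03.

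Gene lists were then read in both ways, by the entries named for the genes and by the entries that lie over them. Besides Gpr17, 0 entries of any list passed in either reading. Of the 16 pathway lists with at least 3 entries by name, 14 had a median log2 fold change below 0, and of the 13 with at least 3 entries by partner, 4 did and 9 were above 0. Most entries named for list genes have no partner, and those that lie over them have one by construction, so the 2 readings draw mostly on the 2 classes compared above.

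Integrin and adaptor genes by name had 10 of 13 entries below 0 (median -0.20), although without control replicate 3 the median turned positive. Ilk, the kinase-like core of the complex, had 152, 161 and 202 counts in controls and 189, 236 and 176 in mutants (0.24, SE 0.18), and its partner Taf10 stood at -0.01 (SE 0.13). Itga6, the integrin alpha6 subunit of laminin receptors, had 169, 208 and 213 counts in controls and 105, 185 and 125 in mutants and no overlap in CPM (-0.51, SE 0.19). Itgb1, the beta1 integrin gene, was at -0.11 (SE 0.23), and the parvin gene Parva at -0.25 (SE 0.33). Parvb and Parvg were at 0 in all 6 libraries. The 6 entries over genes of this list were 3 above and 3 below 0 (median 0.04, which turned negative with upper-quartile scaling and with the classes scaled separately), among them Gpr17 over Lims2.

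Myelin protein genes by name had 16 of 22 entries below 0 (median -0.22), and only 5 of the 22 had a partner. Lower without overlap were 5 of the 22, against 4.68% of all entries and 7.74% of those without a partner. Pmp22, a tetraspan protein of compact myelin, had 4672, 4570 and 5332 counts in controls and 3658, 4774 and 3743 in mutants (-0.25, SE 0.13), and the summed level of the list was 17200 to 19800 CPM in controls and 13800 to 15700 in mutants. These sums did not overlap. The 5 entries over myelin genes were 4 above and 1 below 0 (median 0.11, negative without PINCH2 mutant replicate 1), with sums of 31800 to 43500 CPM in controls and 38300 to 53900 in mutants that overlapped. At Prx, the periaxin gene of myelinating Schwann cells, the entry itself was at -0.22 (SE 0.18) and Gm15541 over it at 0.56 (SE 0.59). At Cnp, a gene for a myelin enzyme, the entry was at -0.04 (SE 0.14) and Dnajc7 over it at -0.33 (SE 0.22).

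Lipid synthesis by name had 13 of 17 entries below 0 (median -0.39), and 4 of the 17, Elovl1 among them, were lower without overlap, against 4.68% of all entries and 7.74% of those without a partner. Fads1, a fatty acid desaturase gene, had 60, 78 and 90 counts in controls and 32, 45 and 55 in mutants (-0.76, SE 0.29), and Acly, which supplies cytosolic acetyl-CoA, had 34, 47 and 37 against 20, 22 and 14 (-1.06, SE 0.37). Scd2, the stearoyl-CoA desaturase gene with the most counts of the list, overlapped between groups (-0.25, SE 0.16). Only 3 entries lay over genes of this list, 2 above and 1 below 0 (median 0.12, negative without PINCH2 mutant replicate 2). Cholesterol synthesis was evenly divided, with 7 above and 8 below 0 by name. Its median of -0.10 turned positive with the classes scaled separately and without control replicate 3 or PINCH2 mutant replicate 1. Hmgcs1, an early enzyme of the pathway, was at -0.10 (SE 0.20).

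Actin and serum response factor target genes by name had 13 of 16 entries below 0 (median -0.55), which was the lowest median among the pathway lists of at least 3 entries. The 3 highest in CPM by name were Tagln at 0.13 (SE 0.24), Actb at -0.999 (SE 0.26) and Vcl at 0.49 (SE 0.31). Tagln and Vcl overlapped between the groups. Besides Actb, the calponin gene Cnn3 had 39, 61 and 58 counts in controls and 35, 30 and 28 in mutants (-0.73, SE 0.31). Tpm4, a tropomyosin gene over Gm16091, had 27, 49 and 30 against 15, 30 and 11 (-0.93, SE 0.38). Profilin 1 (Pfn1), which binds actin monomers, went the other way, with 17, 15 and 22 counts in controls and 24, 36 and 36 in mutants (0.84, SE 0.36). The 6 entries over genes of this list were 4 above and 2 below 0 (median 0.26, negative without control replicate 1).

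Transcription factors of myelination by name had 7 of 10 entries below 0 (median -0.20). Sox10, needed at every stage of the Schwann cell lineage, had 32, 55 and 55 counts in controls and 30, 40 and 53 in mutants (-0.18, SE 0.32). Egr2, the factor that turns on the myelin program, had 53, 17 and 40 against 12, 23 and 47 (-0.42, SE 0.45). Both overlapped. By partner, 3 of 4 were above 0 (median 0.24). Gm16229, over the Egr2 co-repressor gene Nab2, had 537, 886 and 1167 counts in controls and 1231, 1266 and 1085 in mutants, separated in CPM only (0.51, SE 0.21), while Nab2 itself was at 0.11 (SE 0.19).

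Genes of nonmyelinating Schwann cells by name were 4 above and 3 below 0 (median 0.08). Adam22, a receptor for Lgi4, had 52, 50 and 66 counts in controls and 79, 90 and 81 in mutants (0.59, SE 0.26), and Scn7a, a sodium channel-like gene, had 25, 61 and 118 against 34, 30 and 30 (-1.05, SE 0.50). Adam22 was separated between the groups and Scn7a was not. Lgi4, the ligand that Schwann cells secrete, stood at 0.08 (SE 0.26) with Fxyd3 over it at 0.04 (SE 0.15). The 4 entries over genes of this list had a median of 0.01, which turned negative with upper-quartile scaling and with the classes scaled separately, as did the 0.01 of the 5 entries over immature and repair Schwann cell genes. By name the immature and repair genes had only 4 entries kept, 3 of them below 0 (median -0.05, of either sign over the settings). Of the YAP and TAZ list, 4 were kept by name, 3 below 0 (median -0.46), and of polyamine genes 5, 4 below 0 (median -0.48).

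Basal lamina genes and their receptors by name had 14 of 18 entries below 0 (median -0.27). Lamc1, the gamma1 chain of laminins, had 103, 107 and 120 counts in controls and 61, 97 and 95 in mutants (-0.38, SE 0.25), and Nid1, nidogen 1, had 65, 107 and 99 against 25, 87 and 63 (-0.64, SE 0.31). Lamc1 was separated between the groups and Nid1 was not. Col4a1 and Col4a2, collagen IV chain genes that diverge from 1 locus, were at -0.41 (SE 0.22) and -0.03 (SE 0.32). The 4 entries over genes of this list were 1 above and 3 below 0 (median -0.06, positive without PINCH2 mutant replicate 1). Fibrillar matrix genes had 12 of 14 entries below 0 by name (median -0.23, positive without control replicate 2) and 5 of 6 above 0 by partner (median 0.48). Sparc, a matrix-binding glycoprotein gene, had 685, 868 and 975 counts in controls and 499, 770 and 696 in mutants (-0.35, SE 0.17). At Col5a1, a collagen V chain gene, the entry was at -0.12 (SE 0.27) while 2810430I11Rik over it had 34, 40 and 91 counts in controls and 131, 127 and 77 in mutants (1.06, SE 0.48). The groups of 2810430I11Rik overlapped, with control replicate 3 above mutant replicate 3.

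Chaperone genes had 11 of 13 entries below 0 by name (median -0.41). Canx, the calnexin gene, had 76, 95 and 112 counts in controls and 55, 76 and 64 in mutants (-0.52, SE 0.25), while Hsp90ab1, a cytosolic Hsp90 gene, was at -0.01 (SE 0.18). Hspd1 and Hspe1, the genes for the mitochondrial chaperonin and its co-chaperonin, lie head to head and count in both readings, at -0.69 (SE 0.36) and -0.39 (SE 0.53). Cell cycle genes by name had 7 of 10 below 0 (median -0.12), and the 6 entries over cell cycle genes were all below 0 (median -0.38, positive without control replicate 2). Kif20a, Ccne2 and Ccna2, the 3 highest in CPM by name, were at -0.30 (SE 0.18), 0.19 (SE 0.21) and -0.24 (SE 0.21). Oraov1, over the cyclin D1 gene Ccnd1, had 2754, 5842 and 3449 counts in controls and 2010, 5049 and 2647 in mutants (-0.34, SE 0.31), and Ccnd1 itself was at 0.25 (SE 0.21).

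Cytosolic ribosomal protein genes had 52 of 68 entries below 0 by name (median -0.27) and 8 of 10 above 0 by partner (median 0.03, negative with upper-quartile scaling and with the classes scaled separately). Rpl10a, Rps25 and Rpl23a, the 3 highest in CPM by name, were at 0.17 (SE 0.26), -0.03 (SE 0.22) and 0.09 (SE 0.19). Wdr38, over Rpl35, had 3615, 3172 and 4161 counts in controls and 3546, 4972 and 4646 in mutants (0.27, SE 0.14), and Tlcd1, over Rpl23a, was at 0.02 (SE 0.13). The 13 mitochondrially encoded entries were 8 above and 5 below 0, with a median of 0.03 that turned negative with upper-quartile scaling. Jund, over Gm11175, was the 1 immediate early gene kept, at 0.04 (SE 0.17).

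**Figure D5:**
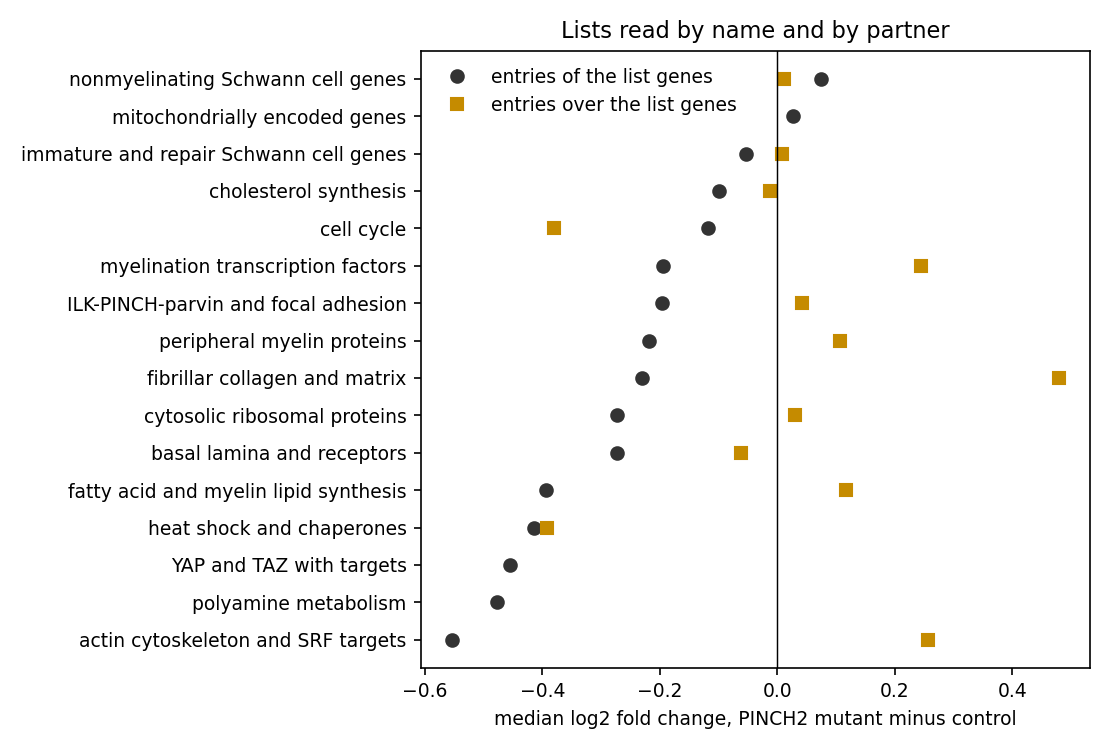
Median log2 fold change (PINCH2 mutant minus control, horizontal axis) of each pathway list with at least 3 entries, as circles for entries named for the genes and squares for entries that lie over them. Circles lie below 0 for 14 of 16 lists, and squares lie above 0 for 9 of 13.

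Markers of cell types in the nerve were read in the same way. All 7 Schwann cell markers were kept and all 7 were below 0 with the main scaling (median -0.22, from -0.18 for Sox10 to -0.61 for S100b), with a summed level of 7060 to 8590 CPM in controls and 5420 to 6890 in mutants. The sums did not overlap. Only 2 entries lay over Schwann cell markers, Gm15541 over Prx at 0.56 (SE 0.59) and Dip2a over S100b at -0.01 (SE 0.30). Their sums, 4610 to 10200 CPM in controls and 6240 to 14700 in mutants, overlapped. Fibroblast markers had 5 of 7 kept and all 5 below 0 (median -0.40), with sums of 401 to 781 CPM against 315 to 551 that overlapped. Of 11 macrophage markers 2 were kept, Csf1r at -0.11 (SE 0.16) and Cd163 at -0.08 (SE 0.42), and of 9 endothelial markers 2, Ecscr at -0.56 (SE 0.37) and Egfl7 at 0.57 (SE 0.49). Above 0 were the pericyte marker Rgs5 (0.64, SE 0.43), the neuronal Nefm (0.13, SE 0.29), the skeletal muscle Atp2a1 (0.42, SE 0.56) and the erythroid Alas2 (0.12, SE 0.64). The perineurial markers Itgb4 (-0.20, SE 0.36) and Slc2a1 (-0.17, SE 0.52) were below 0. All of these overlapped between the groups. For adipocytes, mast cells, lymphocytes and neutrophils 0 markers were kept. Of the skeletal muscle markers Acta1, Myh4 and Tnnc2 were at 0 in all 6 libraries, and Ube2c, a mitotic ubiquitin-conjugating enzyme gene over Tnnc2, had 14, 3 and 21 counts in controls and 9, 110 and 7 in mutants, the high value coming from mutant replicate 2 alone.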

How the data were processed

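The table the authors deposited holds raw read counts, as whole numbers, with 25965 entries and 9 libraries (control, PINCH1 mutant and PINCH2 mutant). Per the submitters' processing notes, Trim Galore 0.4.2, cutadapt 1.9.1, HISAT2 2.0.5 and GRCm38 were used. Not given in the sources used here are the kit's strandedness, the annotation release, and the tool and strand setting used for counting. A total of 124 entries share their symbol with another and were kept apart by gene identifier.

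Partners were found from the spans and strands of the table, and exons from GENCODE M21 (96.2% of entries matched by identifier, bedtools 2.31.1). Entries with at least 10 counts in at least 3 of the 6 control and PINCH2 mutant libraries were tested with edgeR 4.0.16 in R 4.3.3: the quasi-likelihood F-test (robust) after TMM scaling, 1 model of all 9 libraries with genotype as the only term, and Benjamini-Hochberg adjustment over the entries tested with a threshold of 0.05. CPM are counts scaled to the TMM-adjusted total of the entries kept, and the SE is the absolute log2 fold change over the square root of F. The procedure was checked on simulated counts.

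The entries, lists and tests were chosen with earlier results of these data known. Named entries are Lims1, Lims2 and those overlapping them, and entries past the threshold. Then come the 12 in each direction with the smallest p, no overlap and a symbol that is no clone, Gm or Rik name. Partners of all these and the 12 most counted entries were added. The rule also took in up to 3 entries highest in CPM of each of the 18 pathway and 15 marker lists. Not all of these list entries are named in the text. Other list entries named in the text were chosen after their values were seen. Lists were described by counts and medians, with no test. A single one of the most counted entries is not reported here.

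Alternatives were upper-quartile and RLE scaling, TMM leaving out the 20 entries with the most counts, no filter, filterByExpr, the 6 libraries alone, DESeq2 1.42.0, limma-voom (limma 3.58.1), the replicate number as a block, thresholds of 0.01 and 0.1, a mean of at least 20 counts for lists, a partner overlap of at least 100 bases or in exons, and each library left out in turn.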

Additional observations from a re-analysis of the deposited data

How the results depend on the processing

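The number of lower entries, 1 in the main model, was 0 with the 6 libraries alone, with the replicate block and at an adjusted p threshold of 0.01, and it ran from 0 to 1 when each library was left out: it stayed 1 without control replicate 2 and was 0 without any other single library. No entry was higher under any of these. Control and mutant replicates share numbers in the labels. The deviations of same-numbered libraries from their group means correlated at 0.137 (replicate 1), 0.287 (replicate 2) and -0.013 (replicate 3). Between libraries of different numbers the correlations ran from -0.217 to 0.08, so the values of replicates 1 and 2 lay above all of these. The labels do not say whether same-numbered libraries were handled together, and whether they share an effect was not tested. With the replicate block the edgeR adjusted p of Gpr17 was 0.115. Scaling the entries with and without a partner separately was chosen after seeing the data, and Gpr17 passed there (edgeR adjusted p = 0.0147). The 24 other named entries stayed on the same side of 0 and of the threshold in all 384 values computed. They were chosen for a small p and groups without overlap, and none was near the threshold. This outcome was therefore largely fixed by the choice and says nothing of how firm the differences are. Of the list medians, 303 of 306 by name and 226 of 238 by partner moved by less than 1 SD between libraries. For some lists that SD was larger than the median itself, and some medians changed sign within it. These counts therefore do not show that the medians are stable. Depth limits low entries: Lims2, Lims1 and most marker genes of minor cell types were too lowly counted to test.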
